A study of Mus musculus with 3 samples.

Results

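Hes5-high and Hes5-negative neural progenitors were compared within 1 library of cells given localized electroporation. Hes5 encodes a basic helix-loop-helix repressor that is a direct target of Notch signalling. Cells were called Hes5-high when they held at least 4 Hes5 UMIs (unique molecules counted) and Hes5-negative when they held 0. This choice used measured values, and Hes5 was left out of every total and ranking below. Barcodes of 6000 to 20000 UMIs were taken as cells if they held 500 genes or more and their mitochondrial share was 20% or less. The library held 5303 such cells, of 14252 in all 3 libraries of the study. Of these 5303 cells, 1051 were Hes5-high (19.8%, exact Clopper-Pearson 95% interval 18.8 to 20.9%) and 2721 were Hes5-negative (51.3%, 49.96 to 52.7%). The other 1531 cells held 1 to 3 Hes5 UMIs.

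The study grew neural progenitors from the brains of postnatal day 1 mice as neurospheres with 20 ng/mL epidermal growth factor, plated 50000 of them and cultured them for 16 h. The localized group received 400 pulses of 20 V on the device that the cells were plated on. The bulk group was electroporated in a Nucleofector, and the control group is labelled only as control. Cells of all groups were collected 4 h after treatment, when 10000 cells of each group went into 3' droplet sequencing. Strain, genotype, sex and cargo are not given in the sources used here. With 1 library per condition, differences could not be checked in replicates or tested. Intervals cover counting error only.

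In the nervous system, a Notch receptor is cleaved when a ligand on a neighbouring cell binds it, and its intracellular part joins the DNA-binding protein RBPJ to switch on Hes and Hey genes. Hes proteins repress proneural genes and help to keep radial glia and neural stem cells undifferentiated. Notch activity is also known to favour astrocyte over neuronal and oligodendrocyte fates.

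Median depth was 11317 UMIs and 3314 genes in Hes5-high cells and 10619 UMIs and 3167 genes in Hes5-negative cells. Hes5-high cells held a median of 8 Hes5 UMIs and at most 45, and together 80.5% of the library's Hes5 UMIs in cells. Between 3 and 6 cell barcodes were shared by any pair of libraries. Hes5 made up 204 UMIs per 1000000 (CPM) in the cells of the filter and 184 CPM in 92352 barcodes of 10 to 100 UMIs, which hold mostly free RNA. Free RNA can thus place Hes5 UMIs in cells that do not express it, and a count of 0 at this depth limits detection, not expression. With each cell thinned to 6000 UMIs, 53.05% of the cells of the largest cluster held a Hes5 UMI, against 16.4% of the cells of the oligodendrocyte precursor-like cluster. The unthinned shares were 61.7% of the largest cluster, at a median depth of 10273.5 UMIs, and 21.6% of the precursor-like cluster, at 7813 UMIs.

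Progenitor genes were present in both groups, which also held cells led by genes of other cell types, as the clusters described further on show. Sox2, a transcription factor of neural stem cells, was at 402 CPM in Hes5-high cells and 339 CPM in Hes5-negative cells. Nes, the stem cell intermediate filament nestin, was at 325 CPM in Hes5-high cells and 279 CPM in Hes5-negative cells. All 10 microglial and macrophage genes together summed to 0.241 CPM in Hes5-high cells and 0.232 CPM in Hes5-negative cells, and the 5 erythroid genes to 0 CPM in Hes5-high cells and 0.0662 CPM in Hes5-negative cells. The 8 endothelial genes summed to 4.42 CPM in Hes5-high cells and 4.07 CPM in Hes5-negative cells. Of 10 mural and fibroblast genes, Acta2 and Tagln, which encode smooth muscle actin and transgelin, passed 5 CPM, while Pdgfrb and Rgs5 held 3 to 5 UMIs in each group. The whole mural list summed to 262 CPM in Hes5-high cells and 139 CPM in Hes5-negative cells, and its part in the other differences was not tested.

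Among 5909 genes of at least 20 CPM in either group, 43 were at least 2-fold higher in Hes5-high cells (0.728%) and 39 were at least 2-fold lower (0.66%). A ratio is the log2 of the summed CPM of Hes5-high over Hes5-negative cells, with 1 CPM added to each, which lowers the ratios of genes near 0. The 43 higher genes included markers of astrocytes and radial glia and a feedback gene of Notch signalling. The 39 lower genes included Notch ligands, oligodendrocyte lineage genes and genes that growth factor signalling is known to induce. Over all 9884 genes of at least 5 CPM, the minimum used for gene lists, the median ratio was -0.02, 46.2% lay above 0, 0.749% were 2-fold higher and 1.08% were 2-fold lower.

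**Figure D1:**
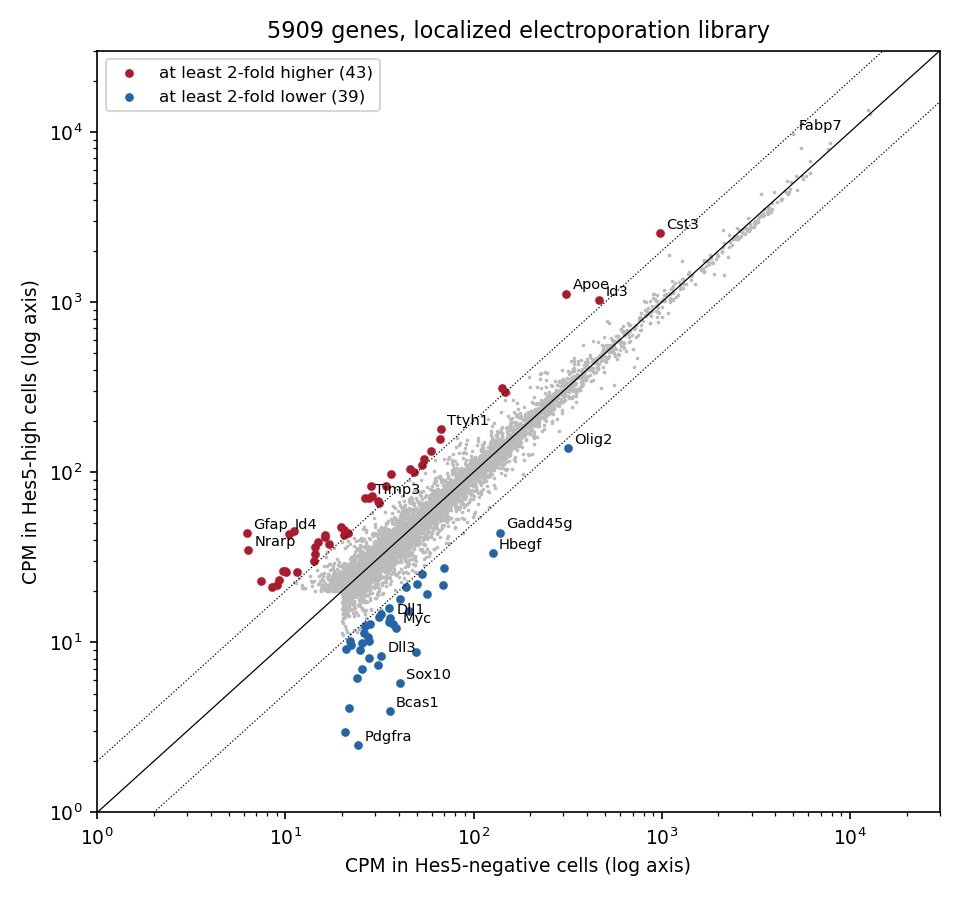
Level of each of 5909 genes in Hes5-high cells (vertical axis, CPM, log scale) against Hes5-negative cells (horizontal axis, CPM, log scale) of the localized library; dotted lines mark 2-fold. The 43 red genes, such as Gfap and Nrarp, lie above the upper line, and the 39 blue genes, such as Pdgfra and Dll3, lie below the lower line.

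Listed targets of Notch signalling and relatives of Hes5 were mostly higher in Hes5-high cells. Nrarp, an ankyrin repeat protein that Notch induces and that limits Notch signalling in turn, was at 35.0 CPM in Hes5-high cells (exact Poisson 95% interval 31.8 to 38.5) and 6.35 CPM in Hes5-negative cells (5.49 to 7.32), a log2 ratio of 2.29. Nrarp rests on 436 UMIs in the 1051 Hes5-high cells and 192 UMIs in the 2721 Hes5-negative cells. Id4, an inhibitor of basic helix-loop-helix factors, was at 43.6 CPM (40.0 to 47.4) in Hes5-high cells and 10.4 CPM (9.30 to 11.6) in Hes5-negative cells, a log2 ratio of 1.97. The counting intervals of the groups do not overlap for either gene. Such intervals are narrow where groups hold 12454622 (Hes5-high) and 30220728 (Hes5-negative) UMIs without Hes5. How often they separate over all genes was not counted, so their separation does not set these genes apart. The Hes and Hey repressors themselves differed less. Hey1 was at 28.7 CPM in Hes5-high cells and 17.0 CPM in Hes5-negative cells (log2 ratio 0.72), and Hes1 at 34.1 CPM in Hes5-high and 23.4 CPM in Hes5-negative cells (0.53). Hes6, which is known to counteract Hes1 in mouse neural development, was the 1 measured member of the list below 0, with 66.7 CPM in Hes5-high cells and 94.6 CPM in Hes5-negative cells (log2 ratio -0.50). Hey2 held 39 UMIs in Hes5-high cells (3.13 CPM) and 28 UMIs in Hes5-negative cells (0.927 CPM), below the list minimum. Of the 12 Notch targets and relatives of Hes5 listed, 7 were measured, with 6 above 0, 2 of them 2-fold higher, and a median ratio of 0.53. The 7 also include Sox9 and Nfia, and whether Notch induces each member in these cells was not tested. Heyl, Hes2, Hes3 and Hes7 held at most 16 UMIs in either group.

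The promoters of Hes5 and of the Notch-related genes with the highest ratios are shown because the first is a known RBPJ target and the others stood highest beside it. Each is read from RefSeq, build GRCm38.p6, from 250 bases before to 50 bases after the start that RefSeq gives, on the gene's own strand, 5′ to 3′. Hes5 spans chr4:154960673-154960972 on the plus strand, Nrarp chr2:25180508-25180807 on the plus strand, and Id4 chr13:48260866-48261165 on the plus strand. Capitals mark TGGGAA, the core of the sequence RBPJ is known to bind, or its complement TTCCCA.
Hes5: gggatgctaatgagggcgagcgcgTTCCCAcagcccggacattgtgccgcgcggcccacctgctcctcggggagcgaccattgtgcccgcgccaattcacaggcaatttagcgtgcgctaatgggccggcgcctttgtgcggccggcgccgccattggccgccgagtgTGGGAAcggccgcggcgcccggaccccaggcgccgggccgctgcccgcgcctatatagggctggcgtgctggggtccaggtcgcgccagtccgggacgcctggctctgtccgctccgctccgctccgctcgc
Nrarp: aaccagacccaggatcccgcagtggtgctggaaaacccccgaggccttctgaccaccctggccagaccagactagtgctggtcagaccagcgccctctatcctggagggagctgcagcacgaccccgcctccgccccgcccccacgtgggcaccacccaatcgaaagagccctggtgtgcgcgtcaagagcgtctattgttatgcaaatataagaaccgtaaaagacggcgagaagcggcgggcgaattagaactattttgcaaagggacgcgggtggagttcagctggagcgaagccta
Id4: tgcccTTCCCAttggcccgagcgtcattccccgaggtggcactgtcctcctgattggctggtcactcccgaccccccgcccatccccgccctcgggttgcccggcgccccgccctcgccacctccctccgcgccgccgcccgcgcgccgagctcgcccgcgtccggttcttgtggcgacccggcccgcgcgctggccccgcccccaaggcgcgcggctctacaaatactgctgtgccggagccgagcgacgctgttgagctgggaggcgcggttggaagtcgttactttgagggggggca

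The Hes5 promoter holds 2 matches, on the minus strand 226 bases and on the plus strand 82 bases before the start, and both are also GTGGGAA, a longer form that contains the core. The Nrarp window holds none, which says only that these letters are not in this window. The Id4 window holds 1 core match on the minus strand 245 bases before the RefSeq start. GENCODE vM21 places the start of Id4 downstream of this window. On both strands, TGGGAA is in 25.6% of all 32851 mouse promoters of this length, and GTGGGAA in 6.38%. Of the 43 higher genes, 33 had a promoter in the table and 10 of them (30.3%) hold TGGGAA in at least 1 promoter. Of the 39 lower genes, 21 had one and 5 (23.8%) hold it, against 24.7% of the 4735 genes of at least 20 CPM with a promoter in the table and 28.3% of all 27025 genes. A match is a sequence description and shows no binding.

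Notch receptors were higher in Hes5-high cells, and Notch3 differed most. Notch3, which is expressed in quiescent neural stem cells, was at 14.1 CPM (12.05 to 16.3) in Hes5-high cells and 4.86 CPM (4.11 to 5.72) in Hes5-negative cells, a log2 ratio of 1.36. Notch1, the main receptor of the developing brain, was at 106 CPM (100 to 112) in Hes5-high cells and 86.1 CPM (82.8 to 89.5) in Hes5-negative cells, a log2 ratio of 0.30. Notch2 was at 10.7 CPM in Hes5-high and 7.78 CPM in Hes5-negative cells (0.41), and Notch4 stayed below 5 CPM in both. All 3 measured receptors thus lay above 0 in localized cells, 1 of them past 2-fold. Their median ratio was 0.41 there, 0.41 in control cells and 0.07 in bulk cells split by the same rule.

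Notch ligands were lower in Hes5-high cells. Dll1, a Delta ligand that neighbouring cells present, was at 13.8 CPM (11.8 to 16.0) in Hes5-high cells and 36.2 CPM (34.1 to 38.4) in Hes5-negative cells, a log2 ratio of -1.33. Dll3, a Delta-like protein known to inhibit Notch from within the cell, was at 8.27 CPM (6.75 to 10.0) in Hes5-high cells and 32.2 CPM (30.2 to 34.3) in Hes5-negative cells, a log2 ratio of -1.84. Jag1, a Jagged ligand, was at 4.26 CPM (3.19 to 5.57) in Hes5-high cells and 10.6 CPM (9.46 to 11.8) in Hes5-negative cells, a log2 ratio of -1.14. These 3 ligands were past 2-fold. Dlk1 had a ratio of -0.21 and Dner, an atypical ligand, 0.05, so that 1 of the 5 measured ligands lay above 0 and the list median was -1.14. Dll4 and Jag2 had 0 UMIs in Hes5-high cells, which allows up to 0.241 CPM, and 10 and 12 UMIs in Hes5-negative cells.

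The machinery between ligand and target differed little. Of 18 genes for Notch processing and coactivators, 16 were measured, 8 of them above 0 and none past 2-fold, with a median ratio of -0.02. Lfng, the Fringe enzyme that modifies Notch receptors with sugars, was at 66.7 CPM in Hes5-high cells and 47.0 CPM in Hes5-negative cells (log2 ratio 0.50). Its relative Mfng was at 3.69 CPM in Hes5-high cells and 6.75 CPM in Hes5-negative cells (-0.72). Rbpj itself was at 55.6 CPM in Hes5-high cells and 63.8 CPM in Hes5-negative cells (-0.19), and Numb, an inhibitor of Notch, at 17.2 CPM in Hes5-high and 12.2 CPM in Hes5-negative cells (0.46).

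Astrocyte genes were higher in Hes5-high cells: 13 of 15 measured members lay above 0, 7 were 2-fold higher, 1 was 2-fold lower, and the median ratio was 0.96. Gfap, the astrocyte intermediate filament, had the highest ratio of the 43 higher genes, with 43.9 CPM (40.3 to 47.8) in Hes5-high cells and 6.25 CPM (5.39 to 7.21) in Hes5-negative cells, a log2 ratio of 2.63. Most cells of both groups had no Gfap UMI. After thinning to 6000 UMIs, 11.4% of Hes5-high cells and 2.65% of Hes5-negative cells held one, against 1.05% of oligodendrocyte precursor-like cells, which should lack the gene. The unthinned shares were 15.2% of Hes5-high cells and 4.37% of Hes5-negative cells. The highest thinned count was 29 Gfap UMIs in a Hes5-high cell and 8 in a Hes5-negative cell. Apoe, the main lipid carrier of astrocytes, was at 1120.1 CPM in Hes5-high cells and 311 CPM in Hes5-negative cells, a log2 ratio of 1.85. Aqp4, the astrocyte water channel, was at 45.4 CPM in Hes5-high cells and 11.1 CPM in Hes5-negative cells (1.94).

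Genes of astrocyte transport and metabolism stood beside them. Slc4a4, a sodium bicarbonate cotransporter, was at 133 CPM in Hes5-high cells and 59.5 CPM in Hes5-negative cells (log2 ratio 1.15), and Aldoc, a glycolytic aldolase, at 310.4 CPM in Hes5-high and 141 CPM in Hes5-negative cells (1.14). Ttyh1 and Ndrg2 had ratios of 1.41 and 1.39, and Mmd2, a membrane protein of the progestin and adipoQ receptor family, 1.51. Cst3, the protease inhibitor cystatin C, shows how far single cells overlap. After thinning, Cst3 had a lowest, median and highest count of 0, 12 and 105 UMIs per Hes5-high cell and of 0, 3 and 102 UMIs per Hes5-negative cell. Its summed level was 2539 CPM in Hes5-high cells and 982 CPM in Hes5-negative cells (log2 ratio 1.37). S100b was the 2-fold lower member of the astrocyte list, with 3.05 CPM in Hes5-high cells and 10.8 CPM in Hes5-negative cells (-1.54). S100b is also known from the oligodendrocyte lineage. Within the largest cluster it was at 5.57 CPM in Hes5-high cells and 2.97 CPM in Hes5-negative cells, levels near or below the list minimum of 5 CPM. As a mean over 4 clusters its ratio was 0.18. Why its sign differs from that over all cells was not tested.

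Neural stem cell and radial glia genes were higher with smaller ratios: 17 of 18 lay above 0, 2 were 2-fold higher, and the median ratio was 0.41. Fgfr3, a fibroblast growth factor receptor, was at 47.6 CPM in Hes5-high cells and 19.9 CPM in Hes5-negative cells (log2 ratio 1.22). Vcam1, an adhesion protein of quiescent stem cells, was at 25.9 CPM in Hes5-high cells and 10.0 CPM in Hes5-negative cells (1.28). Fabp7, the radial glial fatty acid binding protein, was at 9665 CPM in Hes5-high cells and 4969 CPM in Hes5-negative cells (0.96), just inside 2-fold. Fabp7 counts per thinned cell overlapped widely, with a lowest, median and highest of 2, 53 and 203 UMIs in Hes5-high cells and 0, 23 and 162 UMIs in Hes5-negative cells. Tnc, an extracellular matrix protein, was the member below 0 (-0.16). Timp3, an inhibitor of matrix proteases, had a ratio of 1.32 and Rgma, a repulsive guidance protein, 1.38.

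Id genes, targets of bone morphogenetic protein (BMP) signalling, were also higher. Id3 was at 1028 CPM in Hes5-high cells and 466 CPM in Hes5-negative cells (log2 ratio 1.14), with a median of 5 UMIs per thinned Hes5-high cell and 1 UMI per thinned Hes5-negative cell. Id1 was at 383 CPM in Hes5-high cells and 227 CPM in Hes5-negative cells (0.75). Nog, a secreted BMP antagonist, held 71 UMIs in Hes5-high cells (5.70 CPM) and 65 UMIs in Hes5-negative cells (2.15 CPM), a ratio of 1.09. Of the 10 measured members of the BMP and Id list, 7 lay above 0 and 3 were 2-fold higher, with a median of 0.52. Id3 is also a 2-fold member of the astrocyte list and Id4 of the Notch target list, so these counts share genes. Bmp4, a ligand, held 7 UMIs in Hes5-high cells and 108 UMIs in Hes5-negative cells and was below 5 CPM in both groups.

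Oligodendrocyte lineage genes were lower in Hes5-high cells when summed over all cells. Of 14 measured oligodendrocyte precursor genes, 2 lay above 0 and 8 were 2-fold lower, with a median ratio of -1.23. Pdgfra, the growth factor receptor that marks these precursors, was at 2.49 CPM (1.69 to 3.53) in Hes5-high cells and 24.4 CPM (22.6 to 26.2) in Hes5-negative cells, a log2 ratio of -2.86. Sox10, a lineage transcription factor, was at 5.78 CPM in Hes5-high cells and 40.5 CPM in Hes5-negative cells (-2.61). Olig2, which progenitors of the lineage and cultured neurosphere cells both express, was at 139 CPM in Hes5-high cells and 317 CPM in Hes5-negative cells (-1.18), with a median of 0 UMIs per thinned Hes5-high cell and 2 UMIs per thinned Hes5-negative cell. Of 10 measured genes of later oligodendrocytes, 1 lay above 0 and 5 were 2-fold lower (median -1.002). Bcas1, an early myelin gene, was at 3.93 CPM in Hes5-high cells and 35.9 CPM in Hes5-negative cells (-2.90).

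Of 14 listed genes of amplifying and neuron-producing progenitors, 6 were measured. These were lower, with 0 of 6 above 0, 2 past 2-fold and a median of -0.41. Gadd45g, a growth arrest and stress gene, was at 44.2 CPM in Hes5-high cells and 138 CPM in Hes5-negative cells (log2 ratio -1.62). Insm1, a transcription factor of neuron-producing progenitors, was at 2.01 CPM in Hes5-high cells and 5.03 CPM in Hes5-negative cells (-1.004). Of 14 listed neuronal genes, 7 were measured, with 2 above 0, 1 past 2-fold lower, and a median of -0.57. Within the 4 clusters compared further on, the neuronal medians were 0.05, -0.23, -0.21 and -0.11. Those of the amplifying and neuron-producing list were -0.39, -0.003, -0.52 and -0.61.

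Feedback genes of the ERK pathway, which epidermal growth factor activates, were lower in Hes5-high cells: 13 of 14 lay below 0, 3 were 2-fold lower, and the median was -0.64. Spry4, a Sprouty inhibitor, was at 13.2 CPM in Hes5-high cells and 35.7 CPM in Hes5-negative cells (log2 ratio -1.37). Spry1 had a ratio of -1.09 and Phlda1 -1.63. Hbegf, a ligand of the epidermal growth factor receptor, was at 33.6 CPM in Hes5-high cells and 127 CPM in Hes5-negative cells (-1.88). Hbegf was also among the leading genes of an unnamed, Hspa1a-led cluster described below. Myc was at 12.2 CPM in Hes5-high cells and 38.6 CPM in Hes5-negative cells (-1.59), and Plk2, a kinase that p53 induces, had a ratio of -1.52. Aldh1a3, an enzyme of retinoic acid synthesis, was at 27.3 CPM in Hes5-high cells and 69.8 CPM in Hes5-negative cells (-1.32).

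Early response genes split by family member. Fos was at 119 CPM in Hes5-high cells and 54.7 CPM in Hes5-negative cells (log2 ratio 1.11), and Fosb at 22.8 CPM in Hes5-high and 7.38 CPM in Hes5-negative cells (1.51). Fosl1, a Fos relative, was at 2.01 CPM in Hes5-high cells and 9.53 CPM in Hes5-negative cells (-1.81), and Fosl2 had a ratio of -1.27. Jun had a ratio of -0.00, with 202 CPM in Hes5-high cells and 203 CPM in Hes5-negative cells. The list of 19 measured early response genes thus had 2 members 2-fold higher, 4 2-fold lower and a median of -0.05.

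Levels also followed the number of Hes5 UMIs. Cells fell into classes of 0 (2721 cells), 1 (881), 2 to 3 (650), 4 to 7 (510) and at least 8 Hes5 UMIs (541). Of the 43 higher genes, 39 had a higher level at every step, against 7.46% of all 5909 genes. Of the 39 lower genes, 26 had a lower level at every step, against 9.46% of all genes. The rule chose both sets from the classes at the ends, so these counts are a description. Nrarp was at 6.35, 8.93, 16.6, 30.7 and 39.0 CPM along the classes. Gfap was at 6.25, 8.16, 16.6, 35.5 and 51.6 CPM along them, with its largest step between 2 to 3 and 4 to 7 Hes5 UMIs. Dll1 went the other way, with 36.2, 31.6, 26.5, 15.4 and 12.3 CPM. Dll3 was lowest in cells of 4 to 7 Hes5 UMIs, at 7.38 CPM, against 9.09 CPM in cells of at least 8. At the threshold itself, the 169 cells of exactly 4 Hes5 UMIs, just inside the Hes5-high group, had 31.0 CPM of Nrarp and the 253 cells of 3 UMIs, just outside it, had 19.7 CPM. For Dll1 these values were 11.2 CPM just inside and 26.3 CPM just outside.

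**Figure D2:**
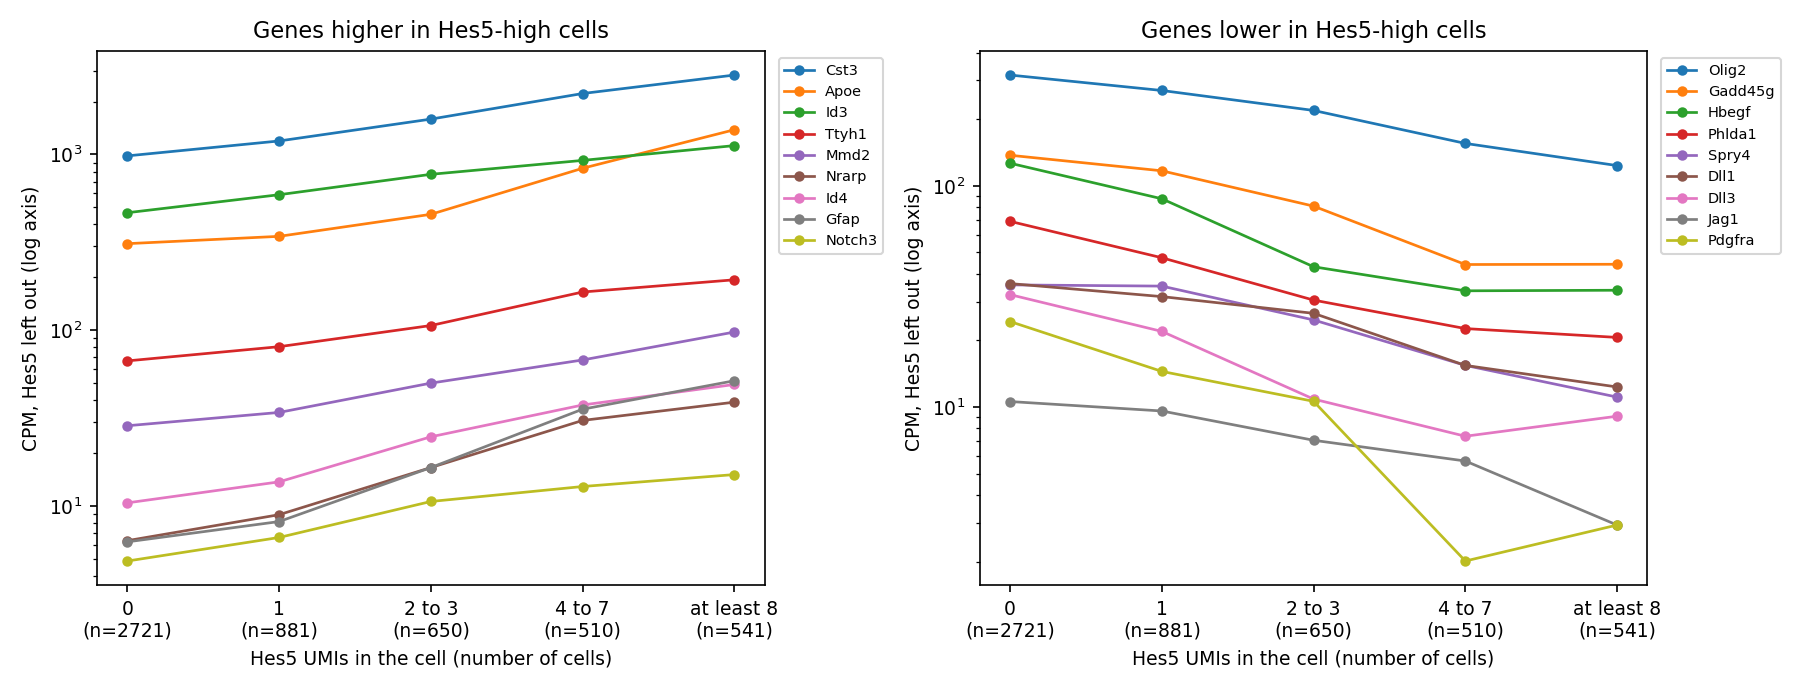
Summed level (CPM with Hes5 left out, log scale) of 9 genes higher and 9 genes lower in Hes5-high cells, in 5 classes of cells by their Hes5 UMIs, from 0 at the left to at least 8 at the right; each point is 1 class of the localized library. Nrarp climbs to 39.0 CPM in cells of at least 8 Hes5 UMIs, against 6.35 CPM in cells of 0, and Dll1 is at 12.3 CPM in cells of at least 8 and 36.2 CPM in cells of 0.

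The groups also differed in which kinds of cells they held. All 5303 cells were clustered with Hes5 left out, and 10 clusters were named only where markers led them. The largest, 1444 astrocyte-like cells led by Apoe and Aqp4, held 32.9% Hes5-high cells (30.5 to 35.4%) and 38.3% Hes5-negative cells (35.8 to 40.9%). It took in 45.2% of all Hes5-high cells and 20.3% of all Hes5-negative cells. Of 477 oligodendrocyte precursor-like cells, 3.56% were Hes5-high (2.09 to 5.65%) and 78.4% Hes5-negative (74.4 to 82.0%), at a median depth of 7813 UMIs. An unnamed cluster of 421 cells was led by Hspa1a, Nupr1, Vgf, Gadd45b, Lgals3, Nefl, Hmox1, Nefm, Hbegf and Srxn1. These include genes of heat shock and oxidative stress, a growth factor and others. This Hspa1a-led cluster held 1.90% Hes5-high cells (0.824 to 3.71%) and 80.5% Hes5-negative cells (76.4 to 84.2%). An unnamed cluster of 209 cells led by Dll1, Btg2 and Gadd45g held 6.22% Hes5-high cells (3.35 to 10.4%) and 62.7% Hes5-negative cells (55.7 to 69.3%). Its median depth was 8504 UMIs. A further unnamed cluster, of 738 cells led by Hist1h3c, held 24.9% Hes5-high and 40.4% Hes5-negative cells, at a median depth of 15621 UMIs. The part of depth in these shares was not tested. The cluster of 1112 cells led by the replication genes Ung and Mcm3 held 18.0% Hes5-high and 48.8% Hes5-negative cells. That of 486 cells led by the mitotic genes Cdc20 and Ccnb2 held 22.2% Hes5-high and 48.8% Hes5-negative cells. Together, the precursor-like cells, those of the Hspa1a-led cluster and the 32 oligodendrocyte-like cells made up 2.47% of the Hes5-high group and 27.2% of the Hes5-negative group.

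**Figure D3:**
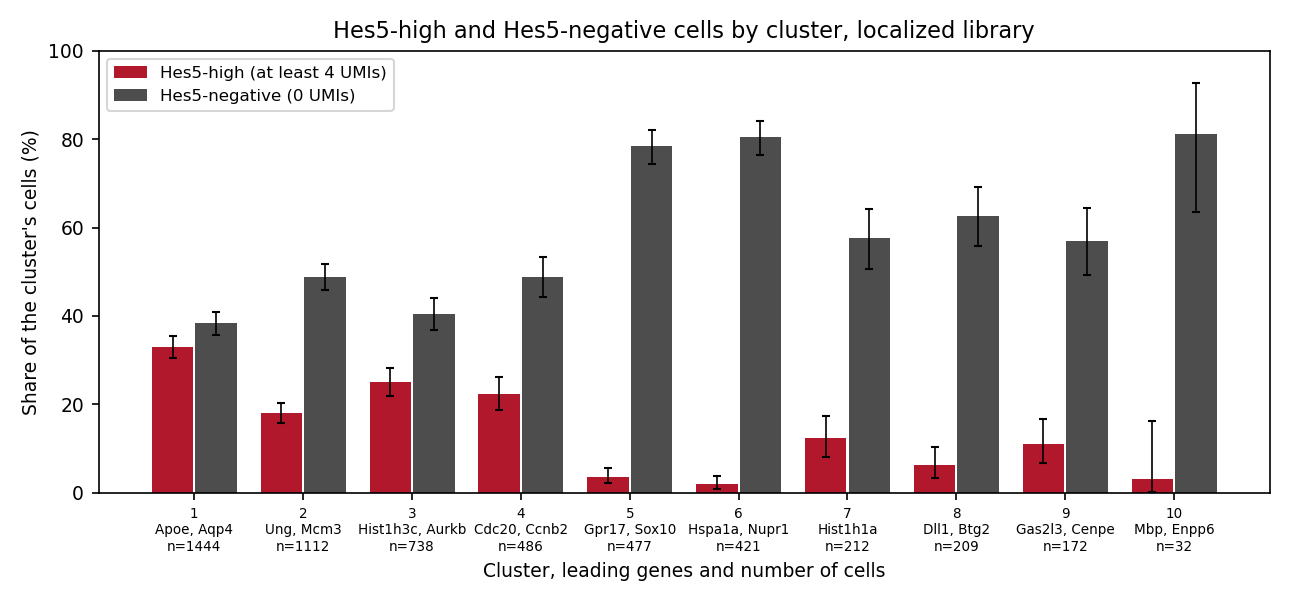
Share of each cluster's cells that were Hes5-high (red, left bar) or Hes5-negative (grey, right bar), in percent, for 10 clusters of the localized library made with Hes5 left out; lines are exact 95% binomial intervals. Cluster 1, led by Apoe and Aqp4, holds the highest Hes5-high share at 32.9%, and clusters 5, 6 and 10 hold 1.90 to 3.56%.

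Within clusters, the astrocyte medians stayed nearer to their values over all cells than those of the Notch ligands and of the oligodendrocyte lineage. The latter medians moved toward 0 or past it, and the cause was not tested. Single ligands did not all move so, as the Jag1 and Dll1 ratios below show. Ratios were computed in the 4 clusters with at least 30 cells of each group, which are those led by Apoe and Aqp4, by Ung and Mcm3, by Hist1h3c and Aurkb, and by Cdc20 and Ccnb2. All 43 higher genes lay above 0 in all 4 clusters, against 17.5% of all 5909 genes. Of the 39 lower genes, 25 lay below 0 in all 4, against 20.8% of all genes. Both sets were chosen from sums that include these cells, so their signs here are partly fixed by the choice and support nothing. Nrarp ratios ran from 1.21 to 2.23 over the 4 clusters and Id4 ratios from 1.51 to 1.95. Gadd45g ratios ran from -1.88 to -1.22, Hbegf ratios from -2.25 to -1.42 and Spry4 ratios from -1.65 to -1.13. Jag1 ratios ran from -2.39, in the astrocyte-like cluster with 10 UMIs in Hes5-high cells and 91 UMIs in Hes5-negative cells, to -0.29. Dll3 ratios were nearer 0, from -0.81 to -0.04, and Dll1 ratios ran from -1.60 to -0.24. The ligand list, with a median of -1.14 over all cells, had medians of -0.22, -0.29, -0.72 and -0.53 in the 4 clusters. Dlk1 was at 0.47 in the astrocyte-like cluster, and Notch2 was at -0.51 in the cluster led by Ung and Mcm3, on 15 UMIs in Hes5-high cells and 60 UMIs in Hes5-negative cells. Most Gfap UMIs of the Hes5-high group, 497 of 547, lay in the astrocyte-like cluster, where Gfap was at 102 CPM in Hes5-high cells and 19.2 CPM in Hes5-negative cells (2.36). In the other 3 clusters Gfap ran from 5.89 to 8.19 CPM in Hes5-high cells and from 2.05 to 2.99 CPM in Hes5-negative cells, on 5 to 23 UMIs per group, with ratios of 0.79 to 1.59.

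The oligodendrocyte precursor list, with a median of -1.23 over all cells, had medians of 0.11, -0.06, -0.17 and -0.25 in these clusters. Pdgfra had ratios of 0.29, -0.39, -1.03 and -1.44 there, on 1 to 14 UMIs per group. Olig2 differed from the list median, with ratios of -1.19, -0.82, -1.32 and -0.86 in the 4 clusters, on 243 to 1820 UMIs per group. The astrocyte list kept medians of 0.72 to 0.79 in the 4 clusters. The ERK feedback list had medians of -0.88 to -0.38. The G2/M list, for genes of mitosis, had all 22 members above 0 over all cells, none of them 2-fold (median 0.47), but its cluster medians ran from -0.09 to 0.76. S phase genes had a median of -0.00 over all 20 members.

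**Figure D4:**
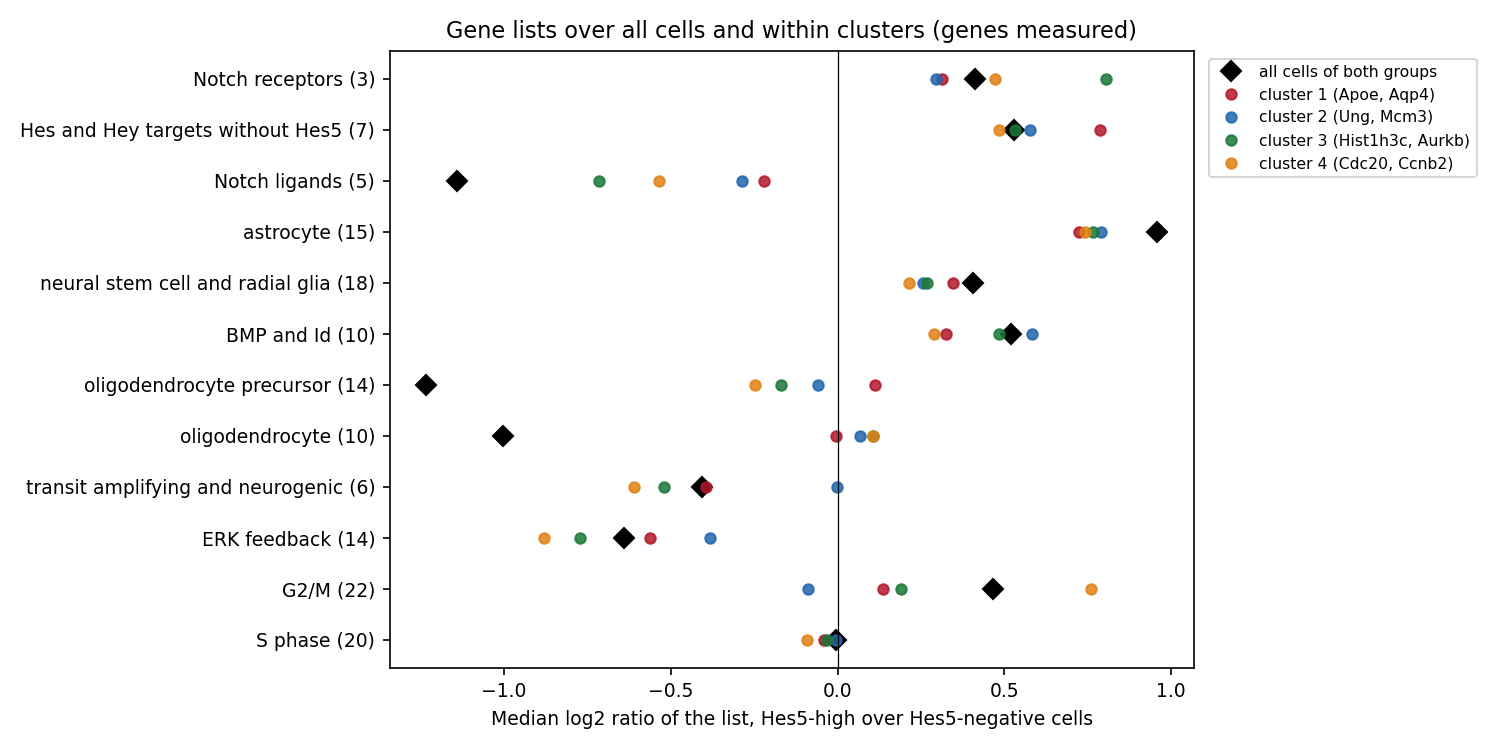
Median log2 ratio of 12 gene lists (rows; number of measured genes in brackets), Hes5-high over Hes5-negative cells, over all cells of both groups (black diamonds) and within each of 4 clusters (coloured points). The oligodendrocyte precursor diamond lies at -1.23 while its cluster points lie between -0.25 and 0.11; the astrocyte diamond lies at 0.96 and its cluster points between 0.72 and 0.79.

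The same split was made in the libraries that the rule did not use. In the bulk library 142 of 4102 cells were Hes5-high and 3421 Hes5-negative, and in the control library 371 of 4847 were Hes5-high and 3692 Hes5-negative. Hes5-high shares were therefore 19.8% of localized, 3.46% of bulk and 7.65% of control cells, at 204, 36.6 and 92.1 CPM of Hes5 in these libraries. Median depth was 13080.5 UMIs in bulk Hes5-high cells and 11264 UMIs in bulk Hes5-negative cells, and 11037 UMIs in control Hes5-high cells and 10073.5 UMIs in control Hes5-negative cells.

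Most of the genes differed in the same direction there. Of the 43 genes higher in localized cells, 42 lay above 0 in bulk cells, all but Fosb, against 46.2% of all genes, and 19 were 2-fold higher, against 0.457% of all genes. In control cells 41 of the 43 lay above 0, all but Fbxo2 and Igfbp5, against 45.4% of all genes, and 9 were 2-fold higher, against 0.203%. Of the 39 lower genes, all 39 lay below 0 in bulk cells, against 53.8% of all genes, and 21 were 2-fold lower, against 0.677%. In control cells 38 of the 39 lay below 0, all but Pim3, against 54.6% of all genes, and 14 were 2-fold lower, against 0.288%. The median ratio of the 43 genes was 1.25 in localized, 0.97 in bulk and 0.76 in control cells, and of the 39 genes -1.37, -1.07 and -0.77. Over the 5909 genes, which are not independent of each other, localized ratios had a Pearson r of 0.68 with bulk and 0.62 with control ratios. The genes were chosen by their size in the localized library, and no library is replicated, so these sizes were not tested against each other.

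By ratio size alone, 6 of the 43 higher genes were at least 2-fold in every library: Nrarp, Fgfr3, Mmd2, Rgma, Id4 and Aqp4. Among the 39 lower genes 10 were, namely Bcas1, Pou3f1, Pdgfra, Hmga2, Plk2, Nefm, Myc, Sox10, Spry4 and Pak3. Counting intervals were not part of this choice. Bulk Hes5-high cells hold 1849722 UMIs in all, so genes of a few CPM there rest on few UMIs. Nrarp was at 19.5 CPM in bulk Hes5-high cells and 6.17 CPM in bulk Hes5-negative cells (log2 ratio 1.51), and at 10.7 CPM in control Hes5-high cells and 4.03 CPM in control Hes5-negative cells (1.21). Gfap differed by library. It had 7 UMIs in bulk Hes5-high cells (3.79 CPM, against 1.76 CPM in bulk Hes5-negative cells) and 5 UMIs in control Hes5-high cells (1.19 CPM, against 0.637 CPM in control Hes5-negative cells), and the counting intervals of both ratios include 0. Dll1 was at 2.16 CPM in bulk Hes5-high cells, on 4 UMIs, and 16.1 CPM in bulk Hes5-negative cells (-2.43), and at 9.25 CPM in control Hes5-high cells and 13.4 CPM in control Hes5-negative cells (-0.49). Hes1 and Hey1 had larger ratios in control cells, at 1.16 and 1.57, than in localized cells, at 0.53 and 0.72. Hes1 was at 87.0 CPM in control Hes5-high cells and 38.3 CPM in control Hes5-negative cells, and Hey1 at 39.4 CPM in control Hes5-high cells and 12.6 CPM in control Hes5-negative cells.

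**Figure D5:**
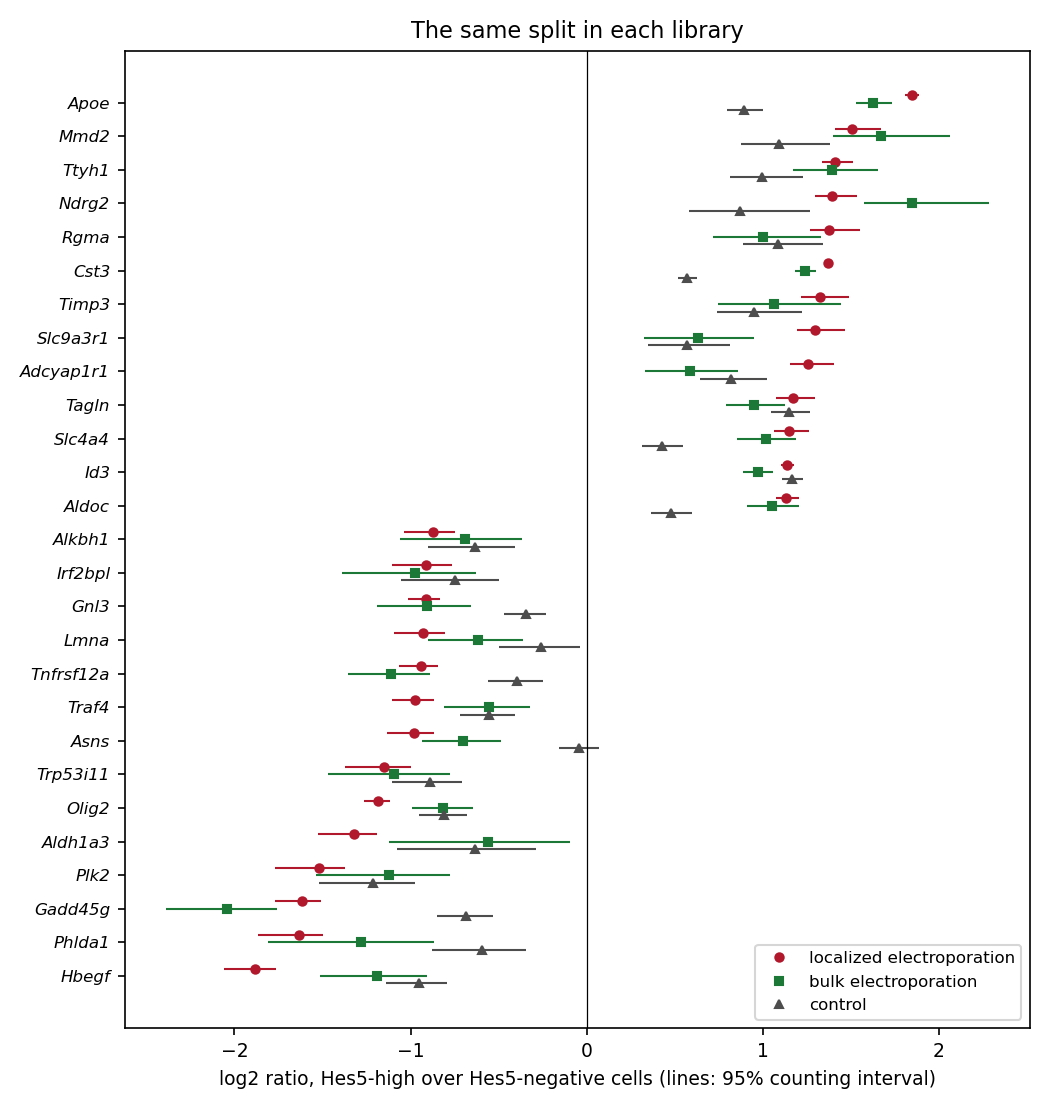
Log2 ratio of Hes5-high over Hes5-negative cells (horizontal axis) for 13 of the 14 highest and the 14 lowest genes of at least 50 CPM in the localized library, in localized (red circles), bulk (green squares) and control cells (grey triangles); lines are 95% counting intervals of the ratio. Apoe lies at 1.85, 1.63 and 0.89 in these libraries and Hbegf at -1.88, -1.19 and -0.95, while Asns lies at -0.98, -0.70 and -0.04.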

How the data were processed

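Droplet 3' RNA sequencing was measured in 1 library per condition. The deposited matrices hold UMI counts, whole numbers for each of 32285 genes in every barcode. Per the file headers, Cell Ranger 4 wrote the matrices. The submitters' processing notes list Cell Ranger 6, Seurat 4.0.4 and GRCm38/mm10. No annotation release is given in the sources used here. The members and gene lists were chosen with earlier results of these data known.

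The localized library held 83803032 UMIs in all barcodes and 61022122 in the 5303 cells kept; no barcode of 6000 to 20000 UMIs failed the filters on genes or mitochondrial UMIs, and 502 barcodes lay above 20000. The control and bulk libraries held 4847 and 4102 cells by the same filter. No doublet caller was run, so doublets below 20000 UMIs remain.

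UMIs were summed over the cells of each group, scaled to 1000000 without Hes5 (CPM) and compared as log2 ratios with a pseudocount of 1 CPM. Genes counted as 2-fold had at least 20 CPM in either group and list members at least 5 CPM; 31 lists were used. Named genes were drawn from all members of the Notch lists and up to 4 genes from each other list by ratio size. The 14 genes at each end of the ranking that reach 50 CPM were added, leaving ribosomal protein, Riken and predicted genes out. A few genes that meet this rule are not reported here. Bmp4, Fos, Jun, Sox2, Nes, Tnc, Pdgfrb, Rgs5, Pim3, Fbxo2, Igfbp5, Pou3f1, Hmga2, Nefm, Pak3 and some genes given as cluster leaders lie outside this rule and were chosen after their values were seen. Intervals are exact Poisson for levels, exact Clopper-Pearson for shares, and exact conditional binomial, with no pseudocount, for ratios, at 95%, and a count of 0 allows 3 counts. They cover counting error only.

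Clustering used Scanpy 1.11.5 and leidenalg 0.10.2 on log-normalised counts of 2000 variable genes without Hes5, with 30 principal components, 15 neighbours and resolution 0.5. Clusters needed at least 3 listed markers among their 10 leading genes to be named. For shares of cells with a UMI, each cell was thinned to 6000 UMIs. Alternatives covered scaling, depth, thresholds, pseudocounts, minimum levels, cell cycle and clusters. Gene coordinates come from GENCODE vM21 by identifier.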

Additional observations from a re-analysis of the deposited data

Results flagged for a closer look

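Genes with a ratio of 1 sign in localized cells and the other sign in another library, with counting intervals clear of 0 in both, were listed among the named genes. None of these differences between libraries was tested, and each library is 1 sample. The stress genes Gdf15, a secreted factor, Mthfd2, a mitochondrial folate enzyme, and Hspb1, a small heat shock protein, had log2 ratios of Hes5-high over Hes5-negative cells of -0.83, -0.70 and -0.44 in localized cells and of 0.34, 0.17 and 0.69 in control cells. The chaperone gene Hsp90aa1 was at -0.20 in localized and 0.06 in control cells, and Hspd1, a mitochondrial chaperone, at -0.19 in localized and 0.13 in bulk cells. Psenen, a gamma-secretase subunit, was at 0.08 in localized and -0.20 in bulk cells. The mitochondrially encoded mt-Co3 and mt-Co2 were at 0.17 and 0.13 in localized cells and at -0.04 and -0.06 in control cells.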

How the results depend on the processing

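No paired analysis was possible because each condition had 1 library and both groups of cells came from the same one. Of the main counts, 43 genes higher and 39 lower, the counts of 2-fold genes moved by over 1.5 times under these alternatives. Genes higher numbered 65 with Hes5 classes set on thinned cells, 68 as a mean over 4 strata of depth, 89 with no minimum level, 20 with at least 50 CPM, and 82 without cells above the median cell cycle sum. Genes lower numbered 59 with Hes5-high set at 8 UMIs, 142 with no minimum, 8 with at least 50 CPM, and 75 without cells above the median cell cycle sum. Alternatives chosen after seeing the data gave 20 genes lower without clusters 5, 6 and 10, and 26 higher and 21 lower as a mean over 4 clusters. Barcodes above 20000 and up to 40000 UMIs gave 22 higher and 9 lower (168 Hes5-high and 165 Hes5-negative cells). Barcodes from 4000 and below 6000 UMIs gave 885 higher and 809 lower, but hold 32 Hes5-high and 307 Hes5-negative cells, so single UMIs set many of these ratios. 

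Of 51 named genes past 2-fold, the signs below turned, and the cause was not tested. Within the largest cluster alone, Sox10 was at 0.92, S100b 0.72, Tnr 0.62, Nupr1 0.46, Pdgfra 0.29, Tubb3 0.055 and Bcas1 0.037. As a mean over 4 clusters, S100b was at 0.18, Mbp 0.20 and Tnr 0.16. S100b was at 0.20 without the oligodendrocyte-lineage clusters and 0.33 without clusters 5, 6 and 10. Above 20000 UMIs, Insm1 was at 0.0080, S100b 0.22, Mbp 0.95 and Bcas1 0.094, and below 6000 UMIs Hey2 was at -1.53 and Fosl2 at 0.20. The oligodendrocyte list median, over members that pass 5 CPM in each setting, was 0.11 in the largest cluster, 0.13 as a mean over 4 clusters and 0.057 above 20000 UMIs. No named gene past 2-fold turned under the other alternatives. Of the 51 genes, 32 were still 2-fold in the largest cluster, 32 as a mean over 4 clusters, 39 with a pseudocount of 5 CPM, 41 without clusters 5, 6 and 10, and 19 above 20000 UMIs; elsewhere 45 to 51 were. Of 26 list medians (21 with at least 50 CPM), 0 to 18 moved beyond a set tolerance, with 18 below 6000 UMIs. The tolerance came from the counting intervals of single member genes and is not the counting error of a median. These counts leave out the oligodendrocyte median in the settings where its sign turned. Genes under about 5 CPM rest on few UMIs in the Hes5-high group, and 1 library per condition limits every statement to these libraries.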

Other observations

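Metal response genes were mostly higher in localized Hes5-high cells, with 5 of 6 members above 0 and a median log2 ratio of 0.32. Slc30a10, a manganese exporter, held 101 UMIs in Hes5-high cells (8.11 CPM) and 15 UMIs in Hes5-negative cells (0.496 CPM), a log2 ratio of 2.61. Its ratios ran from 1.98 to 2.80 within the 4 larger clusters, and it was at 1.60 in bulk and 0.42 in control cells. Mt3, the brain metallothionein, was at 1882 CPM in Hes5-high cells and 1097 CPM in Hes5-negative cells (0.78).

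Of 19 cholesterol synthesis genes, 18 lay above 0 in localized cells, none 2-fold, with a median of 0.20, against medians of -0.10 in bulk and 0.08 in control cells, and its median was -0.01 in the cluster led by Ung and Mcm3. Of 16 measured p53 target genes, 12 lay below 0, with a median of -0.27, which was 0.08 in the same cluster. Cdkn1a, a cell cycle inhibitor, was at 312 CPM in Hes5-high cells and 475 CPM in Hes5-negative cells (-0.60). Of 18 measured genes of the integrated stress response, 15 lay below 0 in localized cells (median -0.35), with medians of -0.63 in bulk and 0.12 in control cells. Within the 4 larger clusters its medians were 0.01, 0.10, -0.42 and -0.20, with 9, 10, 3 and 5 of 18 genes above 0. The Hspa1a-led cluster, which these clusters leave out, held 0.761% of Hes5-high cells and 12.5% of Hes5-negative cells. Its part in the medians over all cells was not tested. Summed over its genes, the integrated stress response list was at 1010 CPM in Hes5-high cells and 1059 CPM in Hes5-negative cells (log2 ratio -0.07). Heat shock and NRF2 target lists had medians of -0.09 and -0.07.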
